A study of Mus musculus with 8 samples.

Results

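Saa1, Saa2, Saa3, Hp, Lcn2 and Orm1 are 6 genes of the acute-phase response, taken by symbol from the 55450 genes counted in single cells of mouse liver. They were chosen by the CPM levels and group differences seen in these same libraries, so their levels and differences between groups are given as a description, with standard errors and without a test. Livers came from wild-type C57BL/6 mice, and each mouse gave 1 library: 2 control mice on a normal diet with drinking water, 3 mice on a high-fat diet with fructose solution and intraperitoneal CCl4 (HFD+F+CCl4), and 3 mice on a western diet with the same additions (WD+F+CCl4). The 6 mice on either diet are models of nonalcoholic steatohepatitis (NASH) with fibrosis, and diet, fructose and CCl4 were given together, so their effects cannot be told apart. No age was stated for the mice. The dissociated livers were depleted of dead cells before droplet capture, and hepatocytes were few among the cells recovered.

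The acute-phase response is the change in plasma proteins that follows injury or infection. Cytokines such as interleukin 6 and interleukin 1 act on hepatocytes through STAT3, C/EBP and NF-kappa B, and secretion of serum amyloid A, haptoglobin and orosomucoid rises while that of albumin and transthyretin falls. Not every acute-phase gene is restricted to hepatocytes: Saa3 is a mouse serum amyloid A known for its expression in macrophages, Lcn2 encodes a siderophore-binding protein of neutrophil granules and injured epithelium, and Hp transcripts are found in myeloid cells.

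Of 88581 barcodes, 80474 passed the filter of more than 500 genes and under 25% mitochondrial UMIs, with 5305581 to 63878061 UMIs per library. Median UMIs per cell were 992.5 in control 2 and 2397 in control 1, and went up to 4278 in the NASH mice. Clustering without the 6 genes gave 34 clusters, of which 26 were named by their markers as 15 cell classes with 75009 cells, each class meant as "like" cells. The other 8 clusters (5465 cells) stayed unnamed. These clusters held 2186 of the 10788 kept cells of control 1 and 2168 of the 4168 of control 2, against 76 to 363 cells in each NASH mouse. They include a control-only cluster led by Sult2a8, Mup11 and Mug1, and 1 of 377 cells, 370 of them from control 1, led by Mug1 and Mup3. Control 2 had 7 hepatocyte-like and 12 granulocyte-like cells and control 1 had 41 hepatocyte-like cells, so these classes have no control comparison. Among kept barcodes, 1467 (1.82%) share their sequence with another library. Levels are CPM, the UMIs of a gene scaled to a fixed total of the UMIs of a class in a mouse, given where a mouse had at least 20 cells of the class.

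Saa1, Saa2 and Saa3 lie in one gene cluster on chromosome 7, with Saa4 between Saa3 and Saa1 (GRCm38), Saa3 (ENSMUSG00000040026) at 46711998 to 46715700 on the minus strand, Saa1 (ENSMUSG00000074115) at 46740497 to 46742980 on the minus strand and Saa2 (ENSMUSG00000057465) at 46751790 to 46754313 on the plus strand. The stretches upstream of their RefSeq starts (GRCm38.p6) are shown so that the pair found mostly in hepatocytes can be set beside Saa3, which was not. Each stretch covers bases -200 to -51 from the start, chr7:46743031-46743180 (minus) for Saa1, chr7:46751633-46751782 (plus) for Saa2 and chr7:46715727-46715876 (minus) for Saa3. Capitals mark matches on either strand to a C/EBP motif (TTNNGNAA) or to an NF-kappa B motif, a letter pattern not printed here. In Saa1 a match to each overlaps in a single run of capitals.
Saa1: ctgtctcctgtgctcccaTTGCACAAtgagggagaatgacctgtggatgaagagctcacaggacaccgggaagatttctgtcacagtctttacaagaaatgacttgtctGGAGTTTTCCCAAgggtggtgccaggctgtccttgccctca
Saa2: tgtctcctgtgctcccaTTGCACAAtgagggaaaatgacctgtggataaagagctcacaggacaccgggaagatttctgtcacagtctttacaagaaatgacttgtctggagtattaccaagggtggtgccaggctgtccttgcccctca
Saa3: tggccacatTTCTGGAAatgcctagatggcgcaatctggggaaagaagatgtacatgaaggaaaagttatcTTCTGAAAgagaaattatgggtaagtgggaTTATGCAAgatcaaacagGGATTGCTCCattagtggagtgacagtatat

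Over the 250 bases upstream, Saa1 and Saa2 were 94.8% identical, whereas Saa1 and Saa3 were 50.2% identical. In those 250 bases Saa3 held 4 C/EBP matches and 1 NF-kappa B match, Saa1 held 2 and 1, and Saa2 held 1 and 0. Lcn2 held 1 C/EBP match and 2 NF-kappa B matches, and none of the 4 held the STAT motif TTCNNNGAA. A C/EBP match was present in 36.9%, an NF-kappa B match in 23.2% and a STAT match in 7.0% of 32841 upstream windows of this length, so single matches are common and describe the letters only. Hp (ENSMUSG00000031722, chromosome 8, 109575128 to 109579172) and Orm1 (ENSMUSG00000039196, chromosome 4, 63344560 to 63348163) have no upstream window here. The transcripts of Saa1 and Saa2 were 93.9% identical and those of Orm1 and Orm2 91.0%, so reads may be divided wrongly between the genes of these pairs. Saa1 and Saa3 transcripts were 64.6% identical.

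The 6 genes fell into 2 patterns by where most of their UMIs lay. Saa1, Saa2 and Orm1 were concentrated in hepatocyte-like cells, which held 77.8%, 84.0% and 66.3% of their UMIs although only 1.175% of all UMIs came from that class. These pooled shares rest largely on WD 1, which gave 1952 of 2469 Saa1, 1863 of 2177 Saa2 and 4743 of 6711 Orm1 UMIs of the class. The median level over the NASH mice was also highest in this class, at 265, 163 and 901 CPM. Saa3, Hp and Lcn2 were found mostly outside hepatocyte-like cells, which held 0.921% of Saa3, 3.61% of Hp and 5.14% of Lcn2 UMIs. The shares of Hp and Lcn2 were still above the 1.175% of all UMIs in this class. By level, the median of Hp over the NASH mice was also highest in hepatocyte-like cells, at 2036 CPM against 1670 CPM in monocyte-like cells. Monocyte-like cells held 41.0% of the 39400 Saa3 UMIs and macrophage-like cells 23.7%, against 9.75% and 30.6% of all UMIs. Monocyte-like cells also held 31.9% of the 187327 Hp UMIs, and granulocyte-like cells held 60.5% of the 62335 Lcn2 UMIs. Saa3 was carried by few cells, with 71.4% of its UMIs in the 1% of all cells that held most of them. Ranked in the same way for each gene, this share was 16.9% for Hp, which was detected in 42.8% of cells. It was 68.6% for Lcn2, 73.5% for Orm1, 93.4% for Saa1 and 100% for Saa2. Only 0.831% of cells held a Saa2 UMI and 1.26% a Saa1 UMI, so the share was fixed for Saa2 and nearly so for Saa1.

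**Figure D1:**
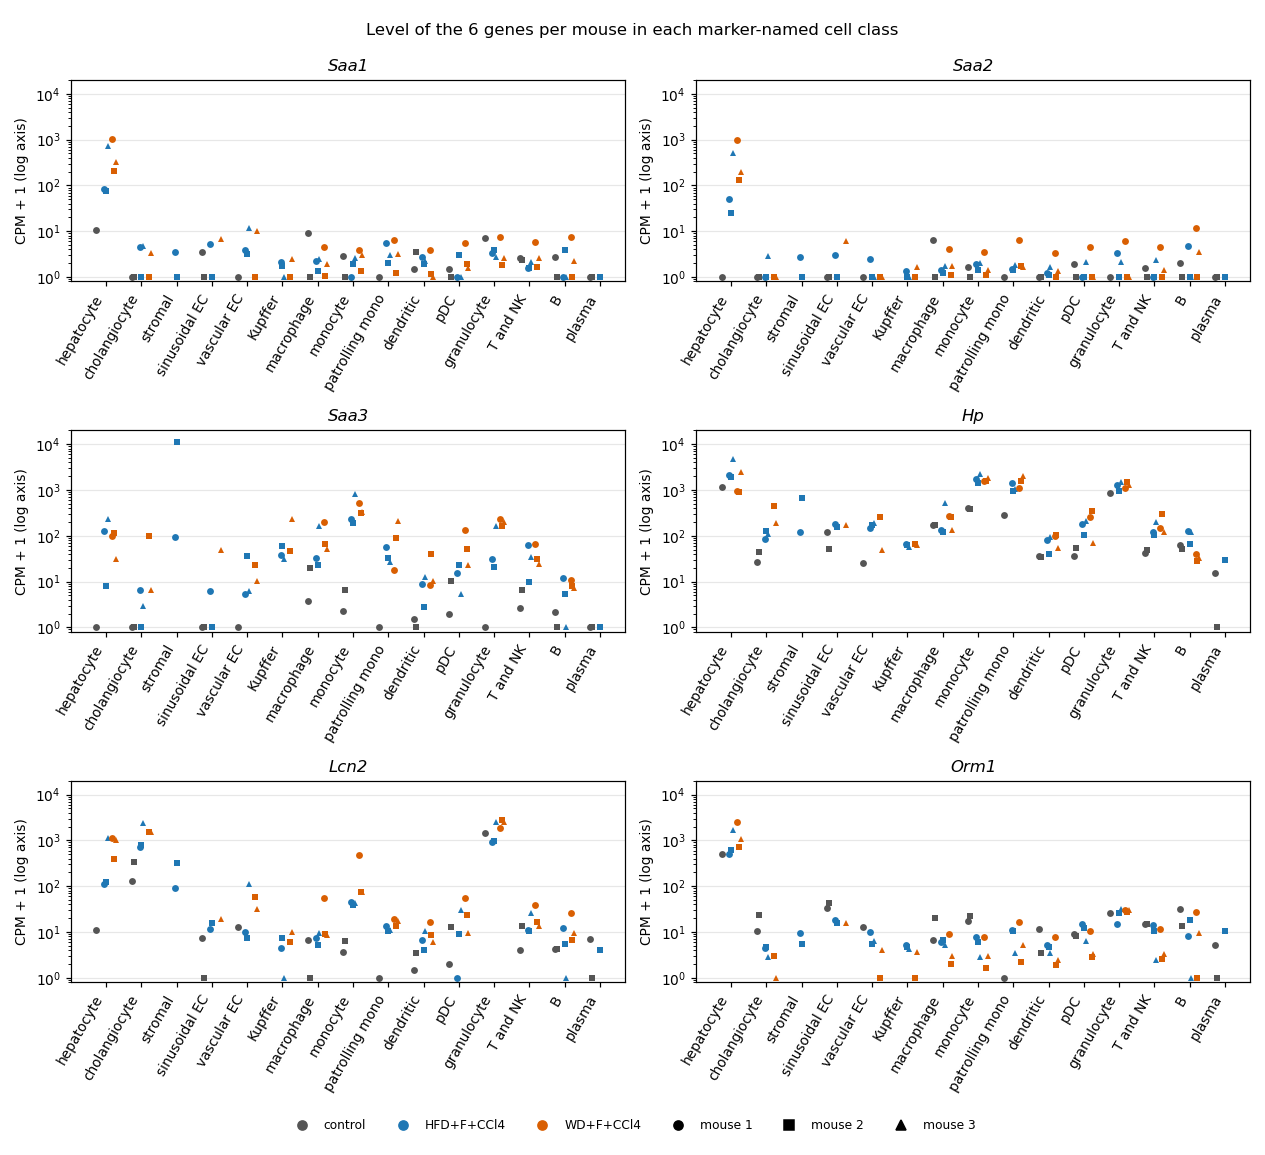
Level of each gene (CPM + 1, log axis) in 15 marker-named cell classes, 1 point per mouse with at least 20 cells, coloured by group and shaped by mouse number. Saa1, Saa2 and Orm1 stand highest in hepatocyte-like cells, Saa3 in monocyte-like cells and a single stromal sum (11298 CPM), and Lcn2 in granulocyte-like and cholangiocyte-like cells.

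Saa1 and Saa2, the serum amyloid A forms secreted by the liver into plasma, varied widely between mice within hepatocyte-like cells. Saa1 was at 84.6, 74.7 and 721 CPM in HFD+F+CCl4 mice 1 to 3, at 1037, 210.1 and 319 CPM in WD+F+CCl4 mice 1 to 3, and at 9.89 CPM (1 UMI) in control 1. HFD 3 and WD 1 were the highest, and the diets overlapped. Saa2 was at 48.4, 24.4 and 499 CPM in the HFD+F+CCl4 mice, at 989, 134 and 192 CPM in the WD+F+CCl4 mice, and had no UMI in control 1, where 3 counts would be 29.7 CPM. Both genes ranked the mice alike at the top, with WD 1 first and HFD 3 second. Saa1 made up 51.2% to 75.4% of the Saa1 and Saa2 UMIs of the NASH mice, so that neither gene was a minor form. The log2 fold change of WD+F+CCl4 against HFD+F+CCl4 was 0.84 ± 0.85 (SE) for Saa1 and 1.26 ± 1.02 for Saa2, differences close in size to their standard errors. Both rested on single mice, at 2.79 and 3.74 without HFD 3 and at -0.13 and -0.17 without WD 1, where the direction turned.

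Orm1, which encodes the plasma glycoprotein orosomucoid 1, was the more constant of the hepatocyte genes. It was at 504 CPM in control 1, at 508, 619 and 1679 CPM in the HFD+F+CCl4 mice and at 2519, 721 and 1081 CPM in the WD+F+CCl4 mice. HFD 3 and WD 1 were again the highest, and the lowest NASH mouse was level with the control mouse. WD+F+CCl4 against HFD+F+CCl4 gave a log2 fold change of 0.60 ± 0.56. Its paralog Orm2 was lower in every mouse, from 12.1 to 429 CPM in the NASH mice with no UMI in control 1.

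The 3 other genes were also measured in hepatocyte-like cells. Hp, whose protein binds free hemoglobin, was at 1157 CPM in control 1, at 2125, 1946 and 4870 CPM in the HFD+F+CCl4 mice and at 967, 907 and 2433 CPM in the WD+F+CCl4 mice, a log2 fold change of -1.07 ± 0.51 between the diets. Lcn2 was at 9.89 CPM (1 UMI) in control 1, at 112, 124 and 1142 CPM in the HFD+F+CCl4 mice and at 1115, 397 and 1035 CPM in the WD+F+CCl4 mice (0.86 ± 0.80). Among the HFD+F+CCl4 mice, HFD 3 was far above the others for Lcn2.

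Values beside these results bear on what the hepatocyte-like sums contain. In WD 1 and WD 2 the cells had a median of 0% mitochondrial UMIs and Alb at 1007 and 2609 CPM, against 12011 to 19616 CPM in the other mice. The 6 granulocyte markers summed to 6423 CPM in WD 1 and 2498 CPM in WD 2, with none of the 6 at 0, and S100a8 stood at 3142 and 1032 CPM there. In the other NASH mice the granulocyte markers summed to 125 to 1250 CPM, with 1 to 3 of the 6 at 0, and in control 1 to 3787 CPM, with 1 at 0. The part of these differences in the hepatocyte levels of the 6 genes was not tested.

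Free hepatocyte RNA enters droplets of other cells, and 16 hepatocyte genes gave the level to be expected from it in each mouse and class. The expected level was the share of hepatocyte RNA in the class, measured by the 16 genes, multiplied by the level of the gene in hepatocyte-like cells of that mouse. For control 2, with 7 hepatocyte-like cells, the pooled hepatocyte-like cells of the control group were used. Over the 69 combinations of a NASH mouse and another class, the median ratio of the measured to the expected level was 0.98 for Saa1, 0.66 for Saa2 and 0.89 for Orm1. The measured level was more than 2 times the expected one in 10, 4 and 6 of the 69 combinations. These medians hide classes on either side of the expected level. Orm1 was above it in granulocyte-like cells, at 1.05 to 13.3 times, and in cholangiocyte-like cells Orm1 was at 0 to 0.06, Saa1 at 0 to 0.37 and Saa2 at 0 to 0.04 times the expected level. In macrophage-like cells, for example, the ratio for Orm1 was between 0.85 and 1.4 in all 6 NASH mice, around a median of 4.68 CPM. For Saa3, Hp and Lcn2 the median ratios were 126, 12.5 and 5.88, with more than 2 times the expected level in 61, 64 and 62 of the 69 combinations. The expected level covers hepatocyte RNA only, and free RNA of other cells was not measured. A high ratio therefore does not place a transcript in the class itself. For Saa3 the median ratio was 16.6 even in B cell-like cells and 116 in T and NK cell-like cells. In monocyte-like cells Saa3 was 129 to 4915 times above the expected level.

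**Figure D2:**
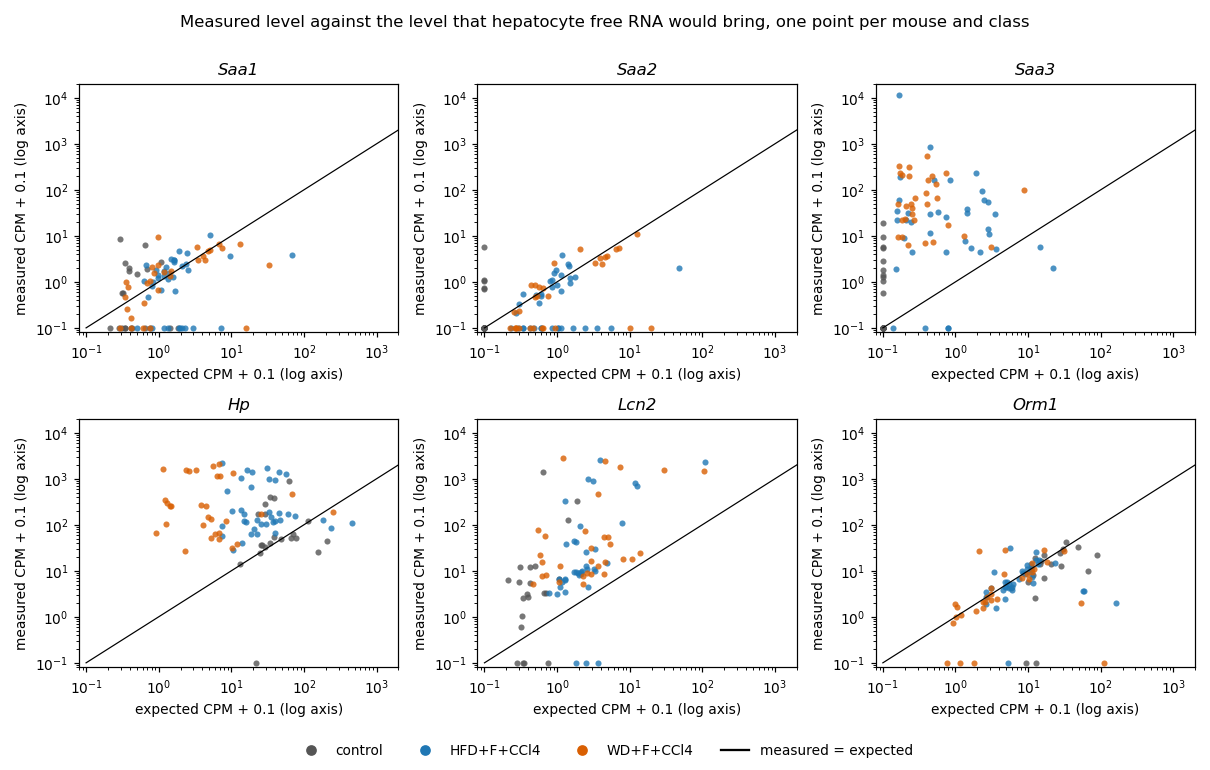
Measured level (CPM + 0.1, log axis) against the level that free hepatocyte RNA would bring (CPM + 0.1, log axis), 1 point per mouse and non-hepatocyte class, coloured by group, with the line of equality. Saa1, Saa2 and Orm1 scatter around the line, with undetected levels along the lower edge (median ratios 0.98, 0.66 and 0.89 in NASH mice), and Saa3, Hp and Lcn2 lie mostly above it (126, 12.5 and 5.88).

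Among the myeloid classes, Saa3 had its highest median over the NASH mice in classical monocyte-like cells, which express Ly6c2 and Ccr2, and was near 0 there in control mice. The level was 1.30 and 5.39 CPM in controls 1 and 2, resting on 2 and 1 UMIs, and 237, 190.0 and 835 CPM in HFD+F+CCl4 mice 1 to 3. In the WD+F+CCl4 mice it was 532, 312 and 326 CPM. Every NASH mouse was above both controls, and the diets overlapped. In the monocyte and macrophage sum, 30.6% (HFD+F+CCl4) and 31.5% (WD+F+CCl4) of all genes were likewise higher in every mouse of the diet. This share was not counted in monocyte-like cells alone. The means were 3.35 ± 2.89 CPM in controls (SD, n = 2), 421 ± 360 CPM (SD, n = 3) with HFD+F+CCl4 and 390 ± 123 CPM (SD, n = 3) with WD+F+CCl4. With UMIs pooled over the mice of a group, the ratio to control was 353 in HFD+F+CCl4 mice (95% exact interval 121 to 1710) and 241.0 in WD+F+CCl4 mice (82.4 to 1169). These intervals cover counting error only, with UMIs taken as independent. They leave out the spread between cells and between mice and are not a test.

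The share of monocyte-like cells with a Saa3 UMI, which rests on the same UMIs as the level, was also higher in each NASH mouse than in both controls. After thinning each cell to 1000 UMIs it was 8.27%, 6.62% and 20.7% in the HFD+F+CCl4 mice and 19.9%, 11.9% and 11.2% in WD+F+CCl4 mice 1 to 3, against 0.081% in control 1 and 1.94% in control 2, the latter over 46 cells. Unthinned shares were 12.0% to 37.9% in the NASH mice and 0.282% and 0.595% in the controls. How many of all genes separated by their share of cells was not counted. B cell-like cells, which should lack Saa3, had thinned shares of 0% to 1.13% in the NASH mice, at a pooled median of 1739 UMIs per cell against 5694 in monocyte-like cells. Saa3 was thus above this background in monocyte-like cells of each NASH mouse, yet most monocyte-like cells had no Saa3 UMI.

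Different clusters held the monocyte-like cells of the 2 conditions. In the controls 326 and 151 of the 354 and 168 cells were in cluster 21, whereas almost all NASH cells were in cluster 4, which is led by Vcan and Chil3 and has Saa3 among its leading genes. The 45 control cells that fell in cluster 4 held 0 Saa3 UMIs among 145248, which allows up to 20.7 CPM, below the lowest NASH mouse in that cluster (195 CPM). On the other side, 15 cells of HFD 1 and 23 of HFD 2 fell in cluster 21. They also held 0 Saa3 UMIs, among 26176 and 53308, against 243 and 195 CPM in cluster 4 of these mice. The part of the cluster in the Saa3 difference between groups was not tested.

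Saa3 decreased from monocyte-like to macrophage-like cells, the class marked by C1qa, Trem2 and Gpnmb. It was at 2.78 and 18.8 CPM in the controls, 1 UMI each, at 31.7, 21.8 and 166 CPM in the HFD+F+CCl4 mice and at 202, 66.4 and 49.6 CPM in the WD+F+CCl4 mice. The macrophage level was below the monocyte level in each of the 6 NASH mice. Among macrophage-like cells, the cycling cluster led by Nusap1 and Top2a had 0 to 28.6 CPM, below the other macrophage cluster of the same mouse (22.2 to 207 CPM) in all 6 NASH mice. Kupffer cell-like cells, the resident macrophages with Clec4f and Vsig4, had 37.7, 58.9 and 30.1 CPM in the HFD+F+CCl4 mice and 45.0 and 237 CPM in WD 2 and WD 3. Patrolling monocyte-like cells ranged from 17.2 CPM in WD 1 to 212 CPM in WD 3. Control 1 had no UMI there, but 3 counts would be 52.6 CPM. This is above the levels of WD 1, HFD 2 (31.6 CPM) and HFD 3 (26.1 CPM), so a lower control level is not shown. WD 3 was the highest mouse in both of these classes but not in monocyte-like or macrophage-like cells, so the order of the mice changed with the class.

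Hp was detected in monocyte-like cells of every mouse and differed less between groups than Saa3. In monocyte-like cells it was at 396 and 377 CPM in the controls, at 1733, 1429 and 2243 CPM in the HFD+F+CCl4 mice and at 1552, 1606 and 1871 CPM in the WD+F+CCl4 mice, so that NASH and control mice did not overlap. The share of all genes that separated in this way was not counted in this class. Within cluster 4 alone the controls were at 629 and 606 CPM, above their own levels in the whole class. The NASH mice were still higher there, at 1434 to 2242 CPM. The control values rest on 28 and 17 cells, the latter below the minimum used for class levels. Patrolling monocyte-like cells had 281 CPM in control 1 and 965 to 2043 CPM in the NASH mice. In macrophage-like cells the groups overlapped, at 172 and 169 CPM in the controls and 117 to 532 CPM in the NASH mice. Kupffer cell-like cells had 56.9 to 65.0 CPM in the 5 NASH mice measured. Thinned to 1000 UMIs and pooled over the mice, 72.0% of monocyte-like, 58.9% of patrolling monocyte-like and 14.6% of macrophage-like cells had an Hp UMI, against 4.80% of B cell-like cells. Most of these cells came from NASH mice. By mouse, the share of monocyte-like cells was 29.9% and 28.3% in the controls, the latter over 46 cells, and 69.9% to 81.0% in the NASH mice.

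Lcn2 in monocyte-like cells was low in controls (2.60 and 5.39 CPM, 4 and 1 UMIs), at 44.1, 37.7 and 42.4 CPM in the HFD+F+CCl4 mice and at 479, 75.1 and 74.3 CPM in the WD+F+CCl4 mice. WD 1 stood apart, and its monocyte-like cells also had S100a8 at 2402 CPM, against 79.5 to 224 CPM in those of the other NASH mice. The 6 granulocyte markers, none of them at 0, summed to 3386 CPM there, against 282 to 462 CPM with 0 or 1 at 0 in the other NASH mice. Their part in the Lcn2 level of WD 1 was not tested.

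**Figure D3:**
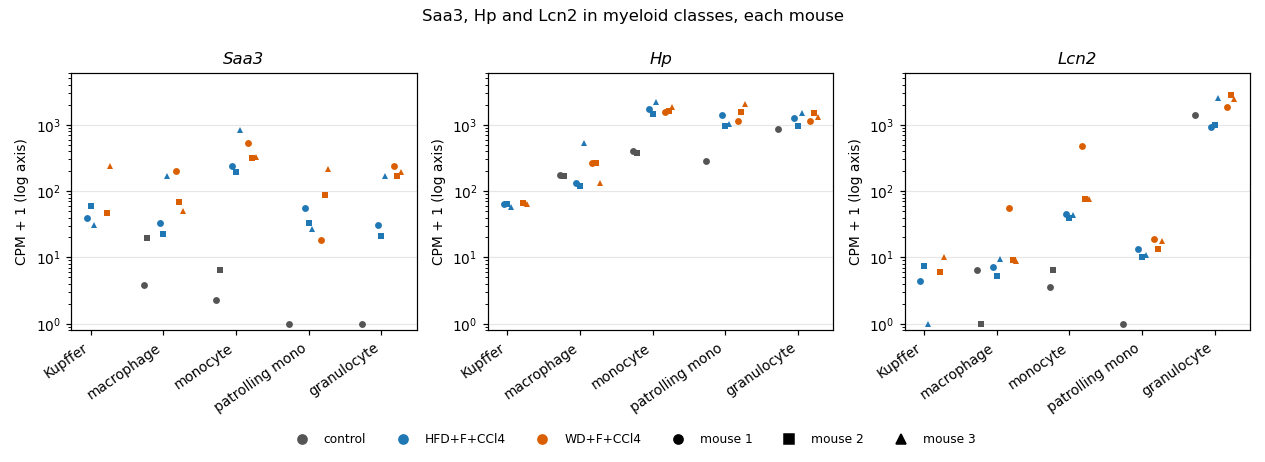
Saa3, Hp and Lcn2 (CPM + 1, log axis) in 5 myeloid classes, 1 point per mouse, coloured by group. In monocyte-like cells all 6 NASH mice lie above both controls for each gene, and Lcn2 of WD 1 (479 CPM) lies above the other 5. The share of all genes separated in this way was not counted in this class.

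The fit over all genes used the sum of monocyte-, patrolling monocyte-, macrophage- and Kupffer cell-like cells of each mouse. In this sum Saa3 was at 1.52 and 8.04 CPM in the controls, at 44.9, 37.5 and 256 CPM in the HFD+F+CCl4 mice and at 299.6, 141 and 137 CPM in the WD+F+CCl4 mice. The log2 fold change against control was 5.62 ± 1.55 (SE) for HFD+F+CCl4 and 6.38 ± 1.53 for WD+F+CCl4, and WD+F+CCl4 against HFD+F+CCl4 gave 0.77 ± 0.71. With so few control UMIs the fitted values depend on the prior count. The ratios of pooled UMIs were 49.4 (95% exact interval 21.2 to 152) and 85.8 (36.8 to 264), intervals that again leave out the spread between cells and between mice. Without HFD 3 the HFD+F+CCl4 value was 4.07, and without control 1 the values against control were 4.11 and 4.89.

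Hp gave 0.98 ± 0.46 and 1.28 ± 0.47 against control, Lcn2 gave 1.76 ± 1.79 and 4.73 ± 1.62, and Orm1 gave -1.57 ± 0.86 and -1.88 ± 0.86. Without HFD 3 the value for Hp in HFD+F+CCl4 was 0.31, and without WD 1 that for Lcn2 in WD+F+CCl4 was 2.88. Saa3 and Lcn2 were higher in every HFD+F+CCl4 mouse than in both controls, as was 30.6% of the 16320 genes tested, and Saa3, Lcn2 and Hp were higher in every WD+F+CCl4 mouse, as was 31.5%. Orm1 was lower in every mouse of either diet, as was 16.6% and 19.4%. Only Lcn2 was higher in every WD+F+CCl4 than in every HFD+F+CCl4 mouse, as was 4.17%, and none of the 6 was lower in every one, as was 7.33%. Such separation was therefore frequent in these data against the controls, and the 2 comparisons share those controls.

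The makeup of this sum moved with the groups. Classical monocyte-like cells were 75.6% and 78.5% of it in the controls and 3.4% to 29.6% in the NASH mice, while patrolling monocyte-like cells were 5.1% to 5.3% and 21.9% to 52.8%. In classical monocyte-like cells alone, a comparison added after the data were seen, the log2 fold changes against control were 7.88 ± 1.16 and 7.74 ± 1.16 for Saa3, 2.25 ± 0.26 and 2.17 ± 0.26 for Hp and 3.77 ± 1.53 and 6.13 ± 1.35 for Lcn2. All 3 genes therefore differed more within the monocyte class than in the sum. For Saa3 the diets were then at -0.14 ± 0.47 from each other. Orm1 was measured in the sum at 13.6 and 20.1 CPM in the controls and at 0.923 to 8.43 CPM in the NASH mice. The levels expected from free hepatocyte RNA were 14.1 and 15.4 CPM and 1.11 to 9.91 CPM. The part of that RNA in the lower Orm1 was not tested.

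Granulocyte-like cells, which are marked by S100a8, S100a9 and Retnlg, held the largest part of Lcn2. It was at 1413 CPM in control 1, at 913, 989 and 2531 CPM in the HFD+F+CCl4 mice and at 1837, 2778 and 2464 CPM in the WD+F+CCl4 mice. The control mouse lay inside the NASH range, and WD+F+CCl4 against HFD+F+CCl4 gave a log2 fold change of 0.70 ± 0.44. These class levels mix a large and a small cluster, described below, that differ widely in Lcn2. The small cluster had 15 cells in HFD 2, 47 in HFD 3, and 73, 54 and 25 in WD 1 to 3. In the large cluster alone control 1 was at 538 CPM. The part of this makeup in the class levels of Lcn2 was not tested. Hp was at 876 CPM in control 1 and 959 to 1529 CPM in the NASH mice, with 0.12 ± 0.27 between the diets. Saa3 was undetected in control 1 and at 30.02, 20.2 and 166 CPM in the HFD+F+CCl4 and 236, 167 and 195 CPM in the WD+F+CCl4 mice. HFD 3 again lay with the WD+F+CCl4 mice, and the value of 1.39 ± 0.67 between the diets became 3.14 without it. At a clustering resolution of 0.8 the value turned to -0.42. The large granulocyte-like cluster then had Saa3 at 23.7 CPM over all mice, and another 1786 cells with 288 CPM, 42.8% of them doublets by rank, stayed unnamed.

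In Lcn2 and Orm1 the 2 granulocyte-like clusters differed by far more than the groups did. The small cluster of 221 cells, led by Camp, Ngp and Ltf, genes of secondary granules made during neutrophil maturation in bone marrow, had Lcn2 at 10472 to 12134 CPM in the 5 NASH mice with at least 15 cells. The large cluster, led by Retnlg and with Cxcr2 among its leading genes, had 343 to 1099 CPM in the NASH mice and 538 CPM in control 1. Orm1 followed the same split, with 129 to 211 CPM against 3.48 to 13.6 CPM in the NASH mice. Alb was at 8.60 to 181 CPM in the small cluster against 16.4 to 725 CPM in the large one. Saa3 went the other way, with 0 to 67.9 CPM in the small cluster and, in the same 5 mice, 16.9 to 257 CPM in the large cluster. The small cluster was below the large one in 4 of these 5 mice, with HFD 2 as the exception. This contrast in Saa3 depends on the clustering. At the higher resolution given above, the large cluster had 23.7 CPM over all mice, inside the 0 to 67.9 CPM of the small cluster here. Cells with more Saa3 then stayed unnamed, and their part in the contrast was not tested. Hp differed less, at 1230 to 1687 CPM in the small and 941 to 1502 CPM in the large cluster. Lcn2 is itself among the genes that lead the small cluster, so its difference there is a description of the cluster.

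**Figure D4:**
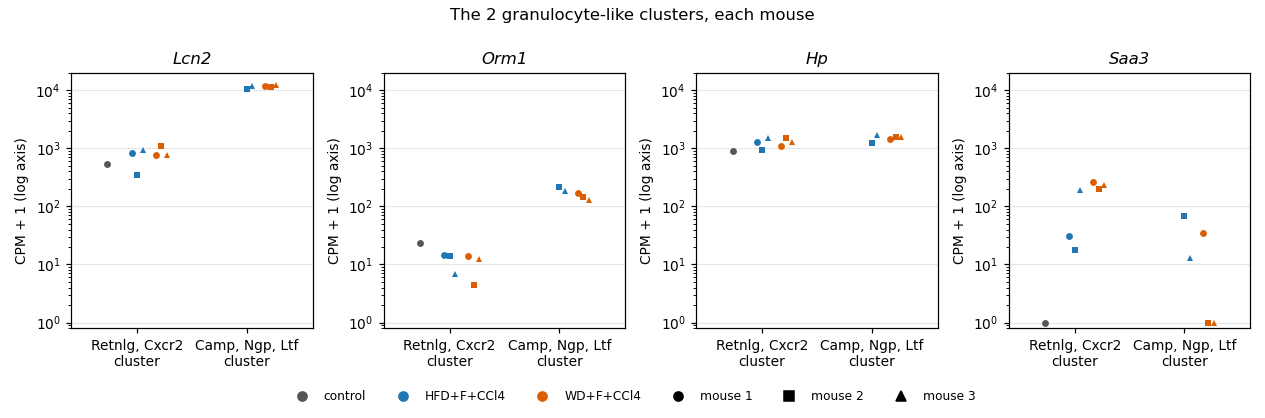
Lcn2, Orm1, Hp and Saa3 (CPM + 1, log axis) in the large (Retnlg, Cxcr2) and small (Camp, Ngp, Ltf) granulocyte-like clusters, 1 point per mouse with at least 15 cells. Lcn2 lies at 10472 CPM or more in the small cluster and at 1099 CPM or less in the large one, and Orm1 shows the same split.

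Cholangiocyte-like cells, the bile duct epithelium marked by Sox9 and Krt8, were the next highest class for Lcn2. They had 126 and 331 CPM in the controls (39 and 15 UMIs), 706, 795 and 2355 CPM in the HFD+F+CCl4 mice and 1514 and 1492 CPM in WD 2 and WD 3. Each of these NASH mice was above both controls, with HFD 3 the highest as in hepatocyte-like cells. How many of all genes separated in this way was not counted in cholangiocyte-like cells. The 16 hepatocyte genes stood at 7.5% to 11.3% of their hepatocyte level in this class in the NASH mice, a share that Orm1, Saa1 and Saa2 did not reach there, so the expected levels in these cells are too high for those genes. The measured Lcn2 was 14.1 to 67.7 times the level expected from this share. Hp in the same cells was at 0.23 to 6.73 times its expected level, below the expected level in 4 of 5 NASH mice.

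In stromal cells, marked by Col1a1, Col3a1 and Dcn, the Saa3 level rested on very few cells. The sums were 92.2 CPM in HFD 1 and 11298 CPM in HFD 2, the only mice with at least 20 such cells. In HFD 2, which had 38 stromal cells, 1 cell held 1698 and another 721 of the 2596 Saa3 UMIs, and the level without these cells was 960.0 CPM. Both cells held 4 or more UMIs of the mesothelial markers Msln, Upk3b, Wt1 and Krt19. Over all 8 mice, 16 of the 250 stromal cells had 3 or more UMIs of these markers and held 2433 of the 2718 stromal Saa3 UMIs, whereas 195 cells without any held 112. This contrast rests on the same 2 cells of HFD 2, which held nearly all of the 2433.

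The profiles over 97 mouse and class sums were compared between genes by Pearson's r of log2(CPM + 1), as a description over points that share mice and classes. Closest to Saa1 were Saa2 (r = 0.891), A2ml1 (0.869) and Gsta1 (0.860), and A2ml1 and Gsta1 were also next to Saa1 for Saa2. Orm1 was closest to the hepatocyte genes Fabp1 (0.867), Leap2 (0.856) and Glyat (0.853). Saa3 was closest to Clec4n (0.705), Trem2 (0.699) and Pla2g7 (0.697), genes of monocytes and macrophages, and Hp was closest to Msrb1 (0.830), Gk (0.824) and Clec4e (0.822). With log2(CPM + 10), 0 of these 3 were among the 3 closest genes of Saa3 and 1 of 3 among those of Hp, so these names depend on the pseudocount. The closest genes to Lcn2 were Osgin1 (0.776), Nudt4 (0.749) and Svip (0.738). Between the 6 genes, Saa3 had r = 0.209 with Saa1 and 0.270 with Saa2, which lie in the same gene cluster, and 0.612 with Hp.

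Around the 6 genes, 82 others of the pathway in 4 lists were tested in the sum of monocytes and macrophages with edgeR's quasi-likelihood test, adjusted over all 16320 genes by the Benjamini-Hochberg method. In HFD+F+CCl4 against control, 5 of the 77 tested rose and 2 fell, where 5.31% of all genes were called. With no scaling beyond library size these were 6 and 4. In WD+F+CCl4 against control, 5 rose and 14 fell, where 7.05% were called. The makeup of the sum moved with the groups, as given above, and its part in these rises and falls was not tested. Without control 1, 1 list gene was called in each comparison, and without control 2 these were 1 and 7. No list gene, and no gene at all (0%), was called between the diets, where 888 genes had an unadjusted p under 0.05 and DESeq2 called 73.

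Of 28 acute-phase genes that usually rise, 3 rose and 1 fell with HFD+F+CCl4 and 2 rose and 8 fell with WD+F+CCl4. Mt1, a metallothionein that binds zinc, was at 16.7 and 52.2 CPM in the controls and 233 to 356 CPM in the NASH mice (log2 fold change 3.70 ± 0.36, adjusted p = 0.00351, and 3.45 ± 0.36, adjusted p = 0.00459). Cd14, the lipopolysaccharide co-receptor, was at 21.7 and 16.1 CPM in the controls and 63.8 to 183 CPM in the NASH mice (2.66 ± 0.49, adjusted p = 0.0210, for HFD+F+CCl4). Mt2 rose with HFD+F+CCl4 (3.88 ± 0.86, adjusted p = 0.0389). Those that fell are transcripts of hepatocytes, such as the fibrinogen chains Fgb (-5.20 ± 0.68, adjusted p = 0.00708), Fgg and Fga with WD+F+CCl4.

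Of 10 negative acute-phase genes, 1 fell with HFD+F+CCl4 (Apoa2, -2.94 ± 0.48, adjusted p = 0.0131) and 6 fell with WD+F+CCl4, among them Alb (-4.52 ± 0.84, adjusted p = 0.0184), Apoa2, Gc and Ttr. Alb was at 657 and 659 CPM in the controls, 52.0 to 330.0 CPM with HFD+F+CCl4 and 10.9 to 53.8 CPM with WD+F+CCl4, and the 16 hepatocyte genes moved the same way in monocyte-like cells, from 2101 and 2398 CPM in the controls to 49.8 to 840 CPM in the NASH mice. The part of free RNA in the fallen genes was not tested. The median log2 fold change of this list was -1.54 and -4.05, and that of the positive list -0.61 and -1.10, against 0.16 and 0.15 over all genes.

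None of 25 cytokine and signalling genes was called in either comparison (medians 0.17 and -0.03). Il6 was at 0.57 CPM or less in every mouse. Of 14 receptors and binding partners, 2 rose with HFD+F+CCl4 and 3 with WD+F+CCl4. Fpr1, a formyl peptide receptor of neutrophils and monocytes, was at 4.04 and 0 CPM in the controls and 42.1 to 106 CPM in the NASH mice (4.35 ± 0.73, adjusted p = 0.0151, and 4.08 ± 0.74, adjusted p = 0.0161). Hmox1, the heme oxygenase that acts downstream of haptoglobin uptake, rose with HFD+F+CCl4 (2.43 ± 0.53, adjusted p = 0.0367). Tlr4 (1.503 ± 0.38, adjusted p = 0.0469) and Lrp1 (1.01 ± 0.23, adjusted p = 0.0345) rose with WD+F+CCl4. These rises are those of the sum, and the part of its changed makeup in them was not tested.

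**Figure D5:**
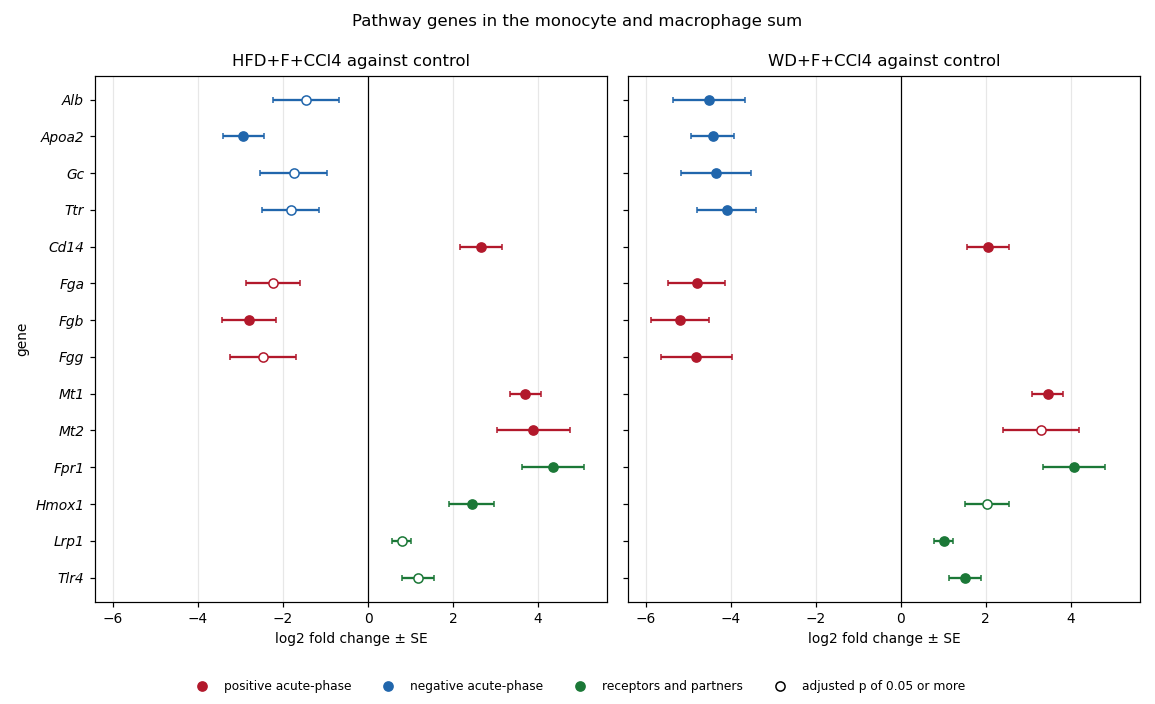
Log2 fold change ± SE against control in the monocyte and macrophage sum for the pathway genes named here, HFD+F+CCl4 on the left and WD+F+CCl4 on the right, coloured by list, with open circles where the adjusted p was 0.05 or more. Mt1 and Fpr1 were called higher in both comparisons, and Fgb and Apoa2 lower in both.

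In classical monocyte-like cells alone, where 4.5% and 7.58% of 11522 genes were called, 9 list genes rose and 3 fell with HFD+F+CCl4 and 7 rose and 16 fell with WD+F+CCl4. Cebpb, which encodes C/EBP beta, rose in both (1.62 ± 0.22, adjusted p = 0.00412, and 1.46 ± 0.22, adjusted p = 0.00376), as did Fpr2, a formyl peptide receptor that binds serum amyloid A (3.42 ± 0.49, adjusted p = 0.00513, and 3.17 ± 0.49, adjusted p = 0.00420). Fpr2 was at 28.6 and 0 CPM in the controls and 185 to 359 CPM in the NASH mice. Socs3, an inhibitor induced by STAT3, rose with HFD+F+CCl4 (2.05 ± 0.52, adjusted p = 0.0494). These 3 genes were named after their values were seen. Between the diets no list gene was called in hepatocyte-like cells, where 8 of 8472 genes (0.0944%) were called, or in granulocyte-like cells (0 of 11418, 617 with an unadjusted p under 0.05 and 18 by DESeq2).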

How the data were processed

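Livers of 8 mice were dissociated and captured with a 10x 3' kit (V3), 1 library per mouse. The authors deposited counts of UMIs per gene and barcode, made with bcl2fastq 2.20 and Cell Ranger on GRCm38. No step that removed ambient RNA was stated. The file header and the methods name different Cell Ranger versions. The 6 genes and the 4 pathway lists were chosen with earlier results of these data known.

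The filter on barcodes asked for over 500 genes and for a mitochondrial share below 25%. Cells were clustered (2000 variable genes without the 6 genes and non-marker list genes, 30 components, 20 neighbours, leidenalg 0.10.2, resolution 0.42) and named from fixed markers. Clusters made mostly of doublets by rank (0.8% per 1000 barcodes) stayed unnamed. UMIs were summed per mouse and class (at least 20 cells) and fitted over all genes with edgeR 4.0.16 (R 4.3.3, TMM, filterByExpr, glmQLFTest, Benjamini-Hochberg adjustment, threshold 0.05), all groups in 1 fit. DESeq2 1.42.0, other filters, scalings, resolutions and left-out mice were tried as alternatives. Hepatocyte RNA was measured by 16 genes (Alb, Apoa1, Fabp1 and others). On simulated counts with 200 genes changed by a log2 value of 2, 43.5% and 38% were recovered in the control comparisons of monocytes and macrophages, 73.5% in hepatocytes and 79.5% in granulocytes.

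Mice are the replicates, as separate animals. Hepatocyte-like and granulocyte-like cells were compared between diets only, since 1 control mouse had at least 20 cells. Named genes are the 6 members, up to 4 called genes per list and comparison with the largest change at a mean log2 CPM over 3, the 3 genes most like each member, and markers. Upstream windows came from RefSeq (GRCm38.p6), and gene positions and transcripts came from GENCODE. 4 of the 6 genes had a window.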

Additional observations from a re-analysis of the deposited data

Results flagged for a closer look

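Saa3 was also found in the barcodes that were left out for few genes or for a high mitochondrial share, which no comparison uses. In these barcodes it was at 2.40 and 4.83 CPM in controls 1 and 2, and at 29.6, 16.2 and 14.96 CPM in the HFD+F+CCl4 mice and 32.4, 26.3 and 88.5 CPM in the WD+F+CCl4 mice, so the lowest NASH mouse was above both controls. The share of all genes that separated in this way was not counted in these barcodes.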

How the results depend on the processing

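Of 402 values of 50 results under alternatives, 343 moved by less than the spread between mice or stayed within 1.5 times the count, and 59 did not. The cause was not tested. At a resolution of 0.8, the median Lcn2 of granulocyte-like cells was 3812 CPM and the diet difference of Saa3 there -0.42. Median shares without thinning were 97.7% (Hp) and 22.2% (Saa3) in monocyte-like and 32.9% (Saa1) in hepatocyte-like cells, and at 500 UMIs 52.3% (Hp, monocytes) and 25.7% (Lcn2, granulocytes). With Alb alone as reference the macrophage ratios were 0.5 (Saa1) and 0.55 (Orm1). With log2(CPM + 10), 0 of 3 closest genes of Saa3 and 1 of 3 of Hp were shared. For HFD+F+CCl4 and WD+F+CCl4 against control, the log2 ratio of mean CPM + 1 was 4.3 and 5.07 for Saa3. With free RNA subtracted it was 4.29 and 5.07. In classical monocytes the log2 fold changes were 7.88 and 7.74 for Saa3, 2.25 and 2.17 for Hp and 3.77 and 6.13 for Lcn2. Called pathway genes (7, 19 and 0 between diets in monocytes and macrophages) were 22, 34 and 8 with DESeq2 and 24, 30 and 14 with every gene of at least 1 count, and 12 in classical monocytes for HFD+F+CCl4. Hepatocytes had 9 with at least 1 count, and granulocytes 5 with DESeq2 and 21 with at least 1 count. Requiring over 1000 genes per cell gave no control comparison.

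Replicate numbers do not pair the mice: deviations of same-numbered mice correlated at -0.54 to 0.052. With the replicate number as a block, 2, 3 and 0 pathway genes were called in monocytes and macrophages, 4 in hepatocytes and 0 in granulocytes.

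Leaving out 1 mouse of the groups compared gave these ranges of log2 fold change. For HFD+F+CCl4 against control, Saa3 ran from 4.07 (without HFD 3) to 6.21 and Hp from 0.31 (without HFD 3) to 1.27. For WD+F+CCl4 against control, Saa3 ran from 4.89 (without control 1) to 6.99, Lcn2 from 2.88 (without WD 1) to 5.22 and Orm1 from -3.11 (without WD 1) to -1.42. Between diets in monocytes and macrophages, Saa3 ran from 0.29 to 2.33 and Hp from 0 to 0.96 (both highest without HFD 3), Lcn2 from 1.12 (without WD 1) to 3.46 and Orm1 from -1.54 (without WD 1) to 0.15. In hepatocytes, Saa1 ran from -0.13 to 2.79, Saa2 from -0.17 to 3.74 and Lcn2 from 0.39 to 2.9, and in granulocytes Saa3 from 0.94 to 3.14 and Lcn2 from 0.43 to 1.46, all highest without HFD 3. Pathway counts ran from 1 (without either control) to 14 (without HFD 3) for HFD+F+CCl4, from 1 (without control 1) to 14 for WD+F+CCl4 (28 without HFD 3, which enters that fit through the shared spread), from 0 to 17 (without WD 3) in hepatocytes and from 0 to 4 (without HFD 3) in granulocytes.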
